A study of Arabidopsis thaliana with 3 samples.

Results

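The expansin superfamily of Arabidopsis thaliana holds the alpha-expansins (EXPA), the beta-expansins (EXPB) and the smaller expansin-like A and B groups (EXLA and EXLB). Its 36 loci were taken by family membership, matched by locus and not by any measured value, from 25665 loci with a probe on the array. The list has 26 EXPA, 6 EXPB, 3 EXLA loci and 1 EXLB locus. Probes were present for 34 of them, 1 each. EXPA19, annotated as a transcribed pseudogene, and EXPB6 were without a probe.

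Expansins are secreted wall proteins that let the cellulose and xyloglucan network of the growing wall slip, without cutting its polymers. They act best at acid pH, so plasma membrane proton pumps and expansins work together in what is called acid growth. Wall loosening of this kind has been shown for alpha- and beta-expansins, whereas EXLA and EXLB proteins carry the same domains with no such activity settled. In seedlings, expansins are known for roles in hypocotyl and leaf growth, in stomatal movement, in lateral root emergence and in root hairs.

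The study set whole seedlings carrying 35S:AtIBH1-SRDX, 10 days old and in the Col-0 background, against wild type of the same age and background. IBH1 is a helix-loop-helix protein that restrains cell elongation by binding growth-promoting bHLH factors, among them HBI1, which binds expansin promoters. SRDX is a short plant repression domain, and the 35S promoter is active in nearly all tissues, so the fusion is not limited to cells that normally make IBH1. The number of transgenic lines and of pooled seedlings was not given in the labels. RNA of both genotypes was hybridised together on 3 Agilent 2-colour arrays, 1 for each replicate, with Cy3 on IBH1-SRDX on arrays 1 and 3 and the dyes swapped on array 2.

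No spot was saturated, and each channel had between 58.8% and 63.5% of its spots well above background. The 3 arrays lay on 1 slide and in 1 scan. With 3 arrays the precision is limited, and as nothing says that the replicates came from separate cultures, p-values measure the spread between these samples, which may be technical. The probe for IBH1 itself read lower in the RNA labelled IBH1-SRDX, at -0.88, -0.60 and -0.67 on the log2 scale (mean -0.71 ± 0.09). The labels and files do not place that probe within the gene, so it does not check the labels, and each direction below rests on them. Shoot markers were well above background in every channel for 8 of 8 genes, and root markers for 12 of 13, so both organs of a seedling were represented.

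Unless said otherwise, values are on the log2 scale with IBH1-SRDX divided by wild type, given for arrays 1, 2 and 3 in that order and then as a mean ± SE (n = 3), where the SE and the adjusted p come from limma fitted over 19875 loci with Benjamini-Hochberg adjustment. A transcript was called at an adjusted p below 0.05. limma draws each gene's variance toward the pooled variance, so an SE can be far from the spread seen for that gene alone, which is given as an SD where it matters. Normalized log2 spot intensities in each genotype are quoted for the same probe only, since the brightness of different probes does not rank their transcripts.

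Most expansins that could be measured were lower in IBH1-SRDX. The test took in probes with a signal clear of background in at least 1 genotype on every array, which left 25 members. Of these, 15 were called lower, 2 higher and 8 not called. Over all loci, 19.9% were called lower and 18.6% higher, against 60.0% lower among the measured expansins. The median log2 ratio of the 25 was -0.72, beside 0.00 over all loci, and it was -0.75, -0.72 and -0.56 on arrays 1, 2 and 3. Called and at least 2-fold lower were 7 expansins, as were 2.13% of all loci. Called and at least 2-fold higher were 0 expansins, beside 3.09% of all loci. That 0 depends on the processing, since EXPA2, dim in wild type, stood at 1.99 in the deposited series table, 2.12 by the Feature Extraction log ratio and 2.13 in the centred table, and was called in each. Each of the 15 was below 0 on all 3 arrays. With each array centred on its median in place of loess, 9 members were called lower, as were 3.39% of all loci.

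Intensities give another view of the same measurements, since on each array those of the genotypes differ by the log2 ratio. In 17 of the 25 measured expansins the 3 IBH1-SRDX intensities all lay below the 3 wild-type intensities, and in 1 they all lay above. Across all loci measured in every channel, 27.3% separated in the lower direction and 26.7% in the higher. The 17 were the 15 called members together with EXPA13 and EXLB1. Seedlings are bulk samples, in which fewer cells of a type and less RNA per cell cannot be told apart.

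**Figure D1:**
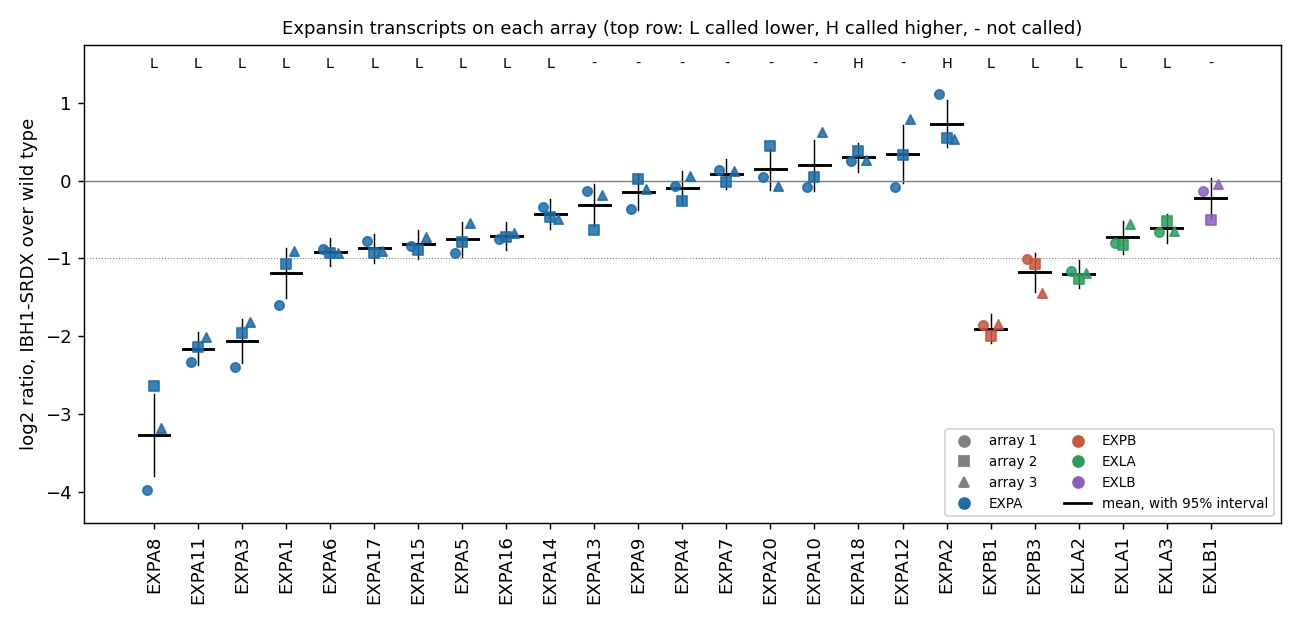
Log2 ratio of IBH1-SRDX over wild type (vertical axis) for the 25 measured expansins, ordered by subfamily and mean. Symbols are the 3 arrays, horizontal bars the mean and vertical lines limma's 95% interval; EXPA8 lies lowest at a mean of -3.27 and EXPA2 highest at 0.73.

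EXPA8 (AT2G40610) had the largest fall of the family. This alpha-expansin is one of the genes whose promoter HBI1 is known to bind. Its wild-type intensities were 10.965, 10.916 and 10.999, and those of IBH1-SRDX were 6.982, 8.274 and 7.814. The wild-type values lay close together and far above those of IBH1-SRDX, which differed among themselves. The log2 ratios were -3.98, -2.64 and -3.18 (mean -3.27 ± 0.22, adjusted p = 0.000124), a 9.65-fold difference with an SD over arrays of 0.67. Among all 19875 loci only 1 had a lower mean. Its size varied with the processing, at -2.92 with no background subtraction, -4.19 with the Feature Extraction log ratio, -4.18 with the deposited series table centred on each array's median, -4.33 with that table as deposited and -2.33 with outlier backgrounds kept.

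EXPA11 (AT1G20190) and EXPA3 (AT2G37640, listed in the reference as EXP3) followed. EXPA11 stood at -2.33, -2.14 and -2.01 (mean -2.16 ± 0.09, adjusted p = 2.95e-05). EXPA3 stood at -2.39, -1.96 and -1.81 (mean -2.06 ± 0.12, adjusted p = 7.38e-05). For both genes every IBH1-SRDX intensity, from 9.95 to 10.39 for EXPA11 and from 9.96 to 10.40 for EXPA3, lay below every wild-type intensity, which began at 12.28 and 12.15. Counted from the lowest mean over all loci, EXPA11 ranked 38 and EXPA3 ranked 51.

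EXPA1 (AT1G69530), an alpha-expansin of guard cells that eases stomatal movement, is the other expansin gene known as a target of HBI1. It read -1.60, -1.07 and -0.91 (mean -1.19 ± 0.13, adjusted p = 0.000847). Array 1 gave the lowest value. Its intensities were from 13.80 to 13.83 in wild type and from 12.23 to 12.91 in IBH1-SRDX, with no overlap.

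Another 6 alpha-expansins were called lower by less than 2-fold. EXPA6 read -0.88, -0.93 and -0.93, with an SD over arrays of 0.03, the smallest of the 25 measured members (mean -0.91 ± 0.08, adjusted p = 0.000257). EXPA17 and EXPA14, both known from lateral root formation, had means of -0.87 ± 0.08 and -0.43 ± 0.08 (adjusted p = 0.000365 and 0.00595). EXPA15 had a mean of -0.82 ± 0.08, EXPA5, a brassinosteroid-responsive gene of shoot growth, one of -0.75 ± 0.10, and EXPA16 one of -0.72 ± 0.08, at adjusted p from 0.000483 to 0.00134. In each of the 6 the genotypes did not overlap in intensity. With median centring the calls of EXPA5 (-0.87), EXPA14 (-0.54), EXPA15 (-0.93) and EXPA16 (-0.83) ended, although each mean lay further below 0. In that setting the median over all loci was itself -0.10.

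**Figure D2:**
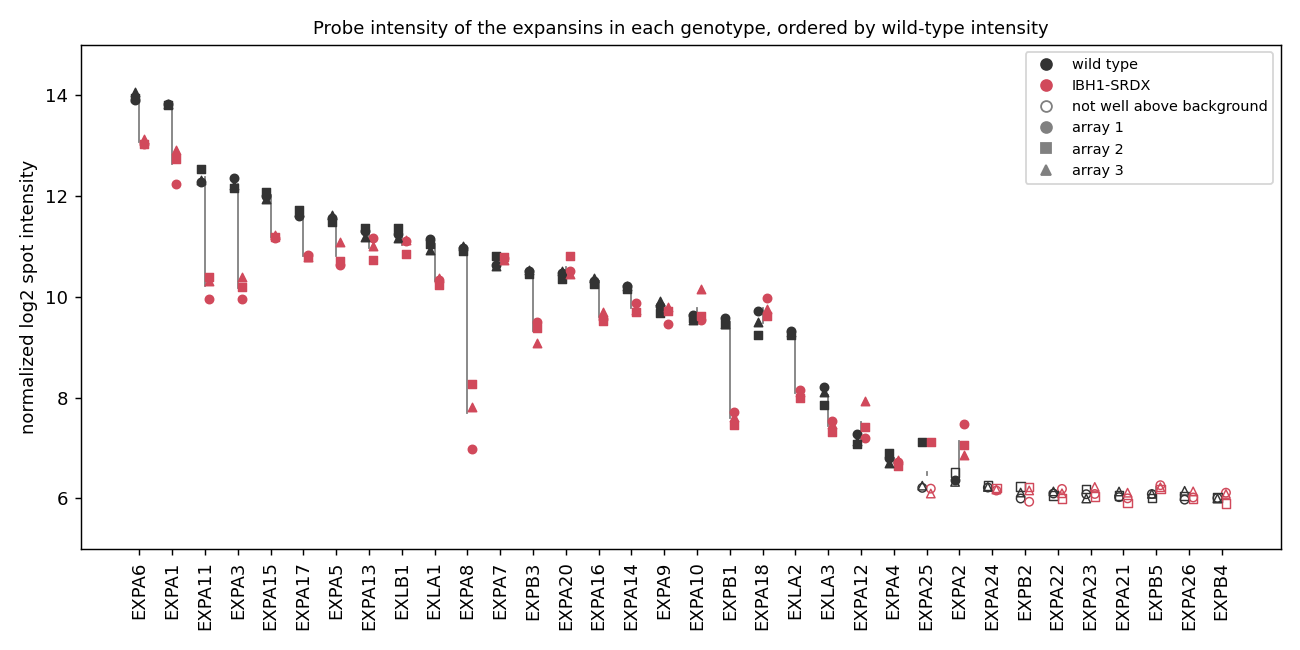
Normalized log2 spot intensity (vertical axis) of the 34 expansins with a probe, ordered by mean wild-type intensity. Black symbols are wild type and red symbols IBH1-SRDX on arrays 1 to 3, open where the spot was not well above background, and grey lines join the genotype means; the widest gap is that of EXPA8, and 8 of the 9 untested members have open symbols throughout.

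The beta-expansins divided by detection. EXPB1 (AT2G20750) and EXPB3 (AT4G28250) were measured, and both fell at least 2-fold. EXPB1 read -1.86, -2.0 and -1.84 (mean -1.90 ± 0.08, adjusted p = 2.99e-05), with intensities from 7.46 to 7.72 in IBH1-SRDX and from 9.46 to 9.58 in wild type. Its size varied with the processing, at -1.40 with outlier backgrounds kept and -2.60 with the deposited series table. EXPB3 read -1.01, -1.07 and -1.45 (mean -1.18 ± 0.10, adjusted p = 0.000336). Its intensities were from 9.08 to 9.51 in IBH1-SRDX and from 10.45 to 10.53 in wild type. Neither gene's genotypes overlapped. EXPB2, EXPB4 and EXPB5 were not well above background in any channel and were not tested.

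All 3 EXLA genes were called lower. EXLA2 (AT4G38400), known for a role in susceptibility to necrotrophic fungi, read -1.16, -1.26 and -1.19 (mean -1.20 ± 0.08, adjusted p = 9.54e-05). EXLA1 (AT3G45970) had a mean of -0.73 ± 0.09 and EXLA3 (AT3G45960) one of -0.61 ± 0.08 (adjusted p = 0.00109 and 0.00142). The genotypes did not overlap in any of these 3 genes. EXLA1 and EXLA3 are neighbouring genes in the reference, and whether their probes share signal was not tested. Both lost their calls with median centring (-0.84 for EXLA1 and -0.69 for EXLA3), where the median over all loci was -0.10. EXLA3 also lost its call with outlier backgrounds kept (-0.40). With the Feature Extraction log ratio EXLA3 stood at -1.03 and with the deposited series table at -1.17. EXLB1 (AT4G17030) read -0.14, -0.50 and -0.04 (mean -0.22 ± 0.11, adjusted p = 0.14) and was not called.

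Set side by side, the subfamilies had 10 of 19 measured EXPA lower, 2 of 2 EXPB, 3 of 3 EXLA and 0 of 1 EXLB. The 0 comes from limma, where EXLB1 did not reach an unadjusted p below 0.05 either. EXLB1 was called lower with the deposited series table (-0.38, adjusted p = 0.0329), where the median over all loci was -0.15. A dye term in the fit also gave it a lower call (-0.29, adjusted p = 0.0165). Median log2 ratios were -0.43 for EXPA, -1.54 for EXPB and -0.73 for EXLA. EXPA ran from -3.27 to 0.73, so the EXPB and EXLA values lay inside its range. With so few EXPB and EXLA genes, these figures are a description and no difference between subfamilies was tested. The order of the medians was the same on arrays 1, 2 and 3, at -0.36, -0.63 and -0.49 for EXPA, at -1.44, -1.54 and -1.65 for EXPB and at -0.80, -0.82 and -0.65 for EXLA.

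EXPA7 (AT1G12560) and EXPA18 (AT1G62980) are the expansins of root hair cells, where they act as the hair emerges and grows. EXPA7 read 0.14, -0.01 and 0.13 (mean 0.08 ± 0.08, adjusted p = 0.437), with a 95% interval of the mean from -0.10 to 0.27. Its intensities overlapped, at 10.77, 10.80 and 10.74 in IBH1-SRDX and 10.63, 10.81 and 10.61 in wild type. EXPA18 read 0.25, 0.38 and 0.27 (mean 0.30 ± 0.08, adjusted p = 0.0221), with an interval from 0.11 to 0.49.

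EXPA18 was thus called higher, although its intensities overlapped between genotypes across arrays, at 9.96, 9.62 and 9.75 in IBH1-SRDX and 9.71, 9.24 and 9.49 in wild type. Within each array IBH1-SRDX was the brighter. The call ended with median centring (0.18), with the deposited series table as deposited (0.22), with outlier backgrounds kept (0.23), without replicate 1 (0.32, adjusted p = 0.0993) and without replicate 3 (0.32, adjusted p = 0.0651). The mean of EXPA7 was slightly below 0 with median centring and with the deposited series table (both -0.02). Medians over all loci were -0.10 and -0.15 in these settings. The intervals of EXPA7 and EXPA18 overlap, and both lie above the intervals of all 15 members called lower.

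Of 17 genes on a list of root hair regulators and wall proteins, 16 were measured, 3 were called higher and 13 not called, with means from -0.42 to 0.62 and a median of 0.17. The 18.8% called higher was close to the 18.6% of all loci, and by array the median of these genes ran 0.22, -0.08 and 0.15, below 0 on array 2. The regulators RSL4 and RHD6 had means of 0.60 ± 0.08 and 0.31 ± 0.09, and the peroxidase gene RHS18 one of 0.62 ± 0.10 (adjusted p from 0.00214 to 0.0347). None of the 16 was called lower by limma, and 2 had an unadjusted p below 0.05 in that direction. RHS17, a root hair gene outside the list and next to EXLA2, was called lower (-0.48 ± 0.10, adjusted p = 0.00872). It was named after its value was seen. The summed intensity of the list was 15239 to 21176 in IBH1-SRDX and 16801 to 17675 in wild type, so the genotypes overlapped, and RSL3 was well above background in no channel.

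Markers of other root tissue were read from the same fit. Of 13 such genes, 8 were called lower, 1 higher and 4 not called, with a median of -0.48. Those called lower were CASP1 to CASP5, ESB1, SHR and NRT2.1. MYB36 was the one called higher (0.44 ± 0.14), and SCR, PLT1, PLT2 and WOX5 were not called. One of the 8, CASP5, had no IBH1-SRDX spot well above background and passed the filter through wild type alone, where it is brighter. CASP1, which organises the Casparian strip of the endodermis, had a mean of -1.06 ± 0.10 (adjusted p = 0.0005). Their summed intensity was 13389 to 15757 in IBH1-SRDX and 25164 to 26148 in wild type. Each was well above background in wild type. Of 8 shoot markers 7 were tested and 4 called lower, with a median of -0.74 and a summed intensity over 5 of them of 271137 to 305955 in IBH1-SRDX and 477291 to 499717 in wild type. The part of these shifts in the expansin values was not tested.

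EXPA2 (AT5G05290), an expansin of the seed known for promoting germination, was the other member called higher. It was dim. The probe was well above background on 3 of 3 arrays in IBH1-SRDX and on 1 of 3 in wild type, with intensities of 7.47, 7.07 and 6.86 against 6.36, 6.52 and 6.33. All IBH1-SRDX values lay above all wild-type values. EXPA2 passed the filter through IBH1-SRDX alone, the genotype where it is brighter. Passing in this way favours a higher value there, so the call of EXPA2 counts for nothing as support. The log2 ratios were 1.11, 0.55 and 0.53 (mean 0.73 ± 0.13, adjusted p = 0.0047), highest on array 1. With wild type near background this mean is no exact fold, and with the Feature Extraction log ratio it was 2.12. The call ended with median centring (0.75, adjusted p = 0.188) and with outlier backgrounds kept (0.36, adjusted p = 0.0892).

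The 8 members not called were EXPA4, EXPA7, EXPA9, EXPA10, EXPA12, EXPA13, EXPA20 and EXLB1. EXPA10, an expansin of leaf and petiole growth, read -0.08, 0.05 and 0.62 (mean 0.20 ± 0.14), so array 3 alone set it above 0. EXPA12 had the highest mean of the 8, at 0.35 ± 0.16, from -0.09 on array 1 to 0.79 on array 3. Without replicate 1 it was called higher (0.56, adjusted p = 0.0298). EXPA13 had the lowest mean, at -0.32 ± 0.11 (adjusted p = 0.0665), and was called lower without replicate 3 (-0.38, adjusted p = 0.0308), but stood at -0.16 without replicate 2 (adjusted p = 0.142). The deposited series table also gave EXPA13 a lower call (-0.48, adjusted p = 0.0201). Only EXPA13 and EXLB1 were below 0 on all 3 arrays; the other 6 changed sign between arrays. EXPA4, close to background in both genotypes, had a mean of -0.09 ± 0.09 but was called lower with the Feature Extraction log ratio (-0.55, adjusted p = 0.0332) and with the deposited series table (-0.69, adjusted p = 0.0162).

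No measurement was possible for 9 members with a probe. EXPA21 to EXPA26, a run of neighbouring alpha-expansin loci, EXPB2, EXPB4 and EXPB5 had 2 well-above-background spots among them, both of EXPA25 on array 2. Outside EXPA25 their intensities were 5.90 to 6.26 in either genotype, and their log2 ratios lay between -0.16 and 0.23. These values bound nothing about their transcripts beyond the detection limit of the array.

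Splitting the 25 measured members at their median average log2 intensity of 9.98 separated brighter from dimmer probes. Of the 12 brighter members, 8 were called lower and 0 higher by limma, with a median of -0.79. Of the 13 dimmer members, 7 were called lower and 2 higher, with a median of -0.43. Over all loci on either side of the same intensity, 19.2% of the brighter and 20.6% of the dimmer were called lower. The 4 members at least 2-fold lower among the dimmer were EXPA8, EXPB1, EXPB3 and EXLA2, and the 3 among the brighter were EXPA1, EXPA3 and EXPA11. No difference between the classes was tested, and brightness also reflects the probe.

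**Figure D3:**
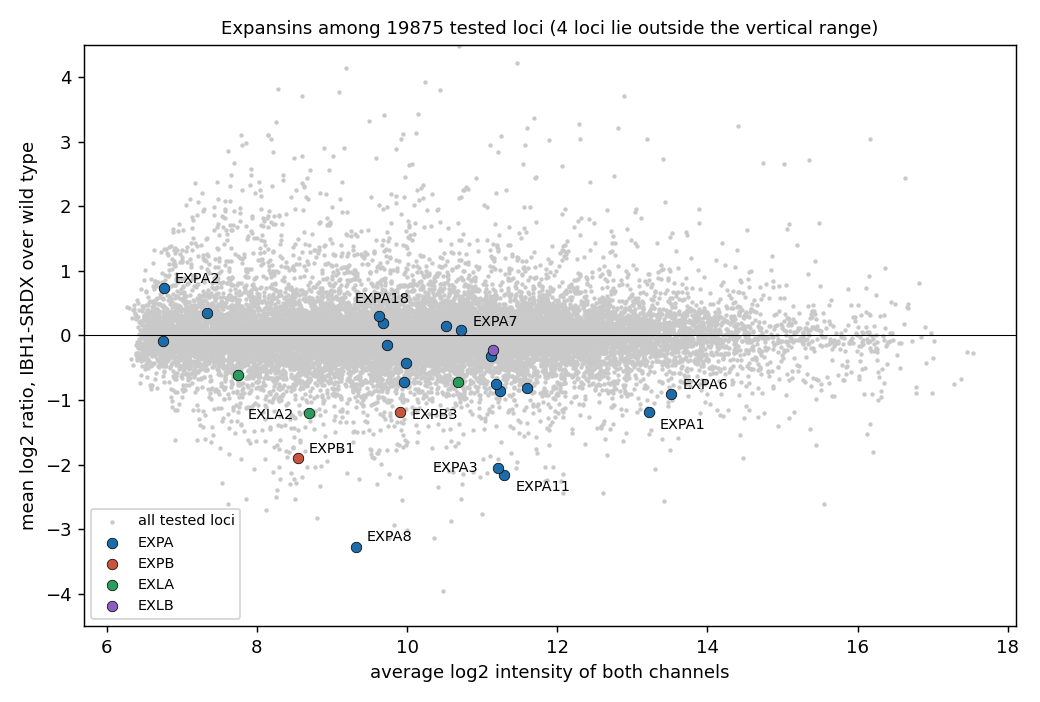
Mean log2 ratio (vertical axis, over 3 arrays, or 2 where an outlier spot was left out) against the average log2 intensity of both channels (horizontal axis) for 19875 tested loci in grey and the 25 measured expansins in colour by subfamily. Expansins below -1 occur at both low and high intensity, and 4 loci lie beyond the vertical range.

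Other genes of wall loosening and acid growth were read from the same fit. Of 29 measured XTH genes, whose enzymes cut and rejoin xyloglucan, 17 were called lower, 3 higher and 9 not called, with a median of -0.43. XTH4 had a mean of -1.90 ± 0.10, XTH6 one of -1.73 ± 0.10, and XTH23 went the other way at 1.12 ± 0.13 (named after its value was seen). Of 10 measured AHA genes, which encode the plasma membrane proton pumps that acidify the wall, 2 were called higher and 8 not called, with a median of -0.05. The 20% called higher was close to the 18.6% of all loci. AHA4 stood at 0.54 ± 0.08 and AHA1 at 0.34 ± 0.08 (adjusted p = 0.00198 and 0.0146), while AHA2, named after its value was seen, had a mean of -0.32 ± 0.13 (adjusted p = 0.084). None was called lower by limma, with 2 at an unadjusted p below 0.05 in that direction.

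The PP2C.D phosphatases switch those pumps off and are themselves held in check by SAUR proteins. Of the 9 members, 4 were called lower, 2 higher and 3 not called, with a median of 0.00. The lowest was AT5G02760 (D1) at -1.43, -2.35 and -1.32 (mean -1.70 ± 0.19, adjusted p = 0.000834), and AT5G06750 (D9) was highest at 0.55 ± 0.08. Counts for these lists are read against the shares of all loci given above, and no difference between lists was tested.

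**Figure D4:**
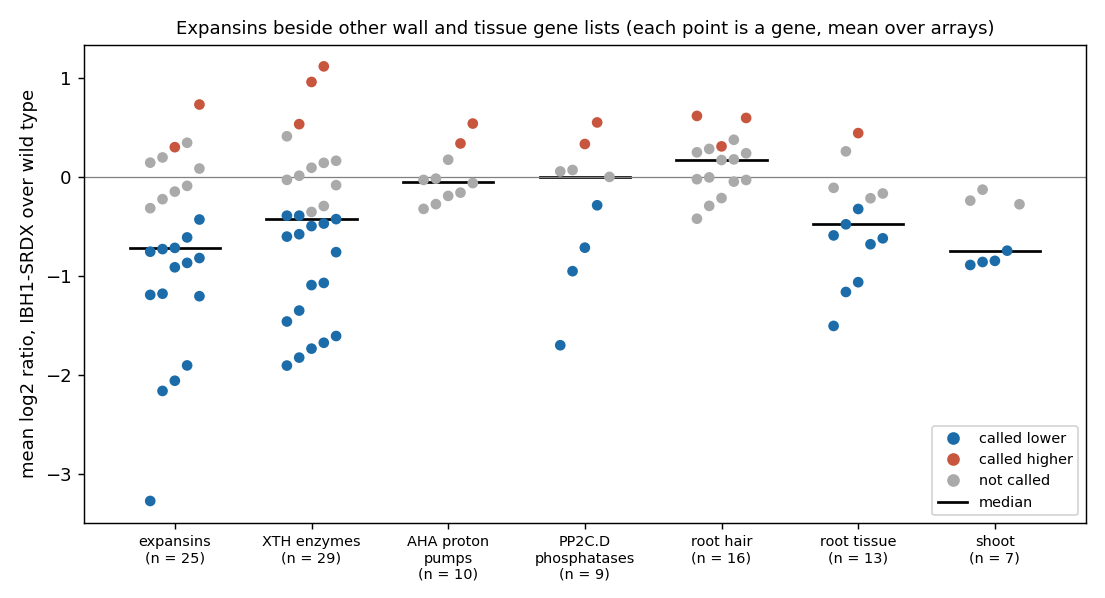
Mean log2 ratio of IBH1-SRDX over wild type (vertical axis) for each measured gene of 7 lists; points are genes coloured by call and black bars are list medians. The medians are -0.72 for expansins, -0.43 for XTH genes, -0.05 for proton pumps, 0.00 for PP2C.D phosphatases, 0.17 for root hair, -0.48 for root tissue and -0.74 for shoot genes.

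Log2 ratios of the expansins correlated between arrays. As r depends on the spread of the values, here means from -3.27 to 0.73, it does not rank expansins against all loci. Across the 25 measured members, which are genes and not independent replicates, log2 ratios of arrays 1 and 2 correlated with r = 0.94, of 1 and 3 with r = 0.94 and of 2 and 3 with r = 0.953, beside 0.859, 0.884 and 0.808 over all loci. The SD over arrays was largest for EXPA8 (0.67) and next for EXPA12 (0.44) and EXPA10 (0.37). With a dye term in the fit, the largest dye coefficient of a member was 0.47, again for EXPA8, and 3 more (EXPA13, EXPA20 and EXLB1) exceeded 0.2 in size. With that term EXPA8 stood at -3.11, and EXPA13, EXLB1 (both lower) and EXPA20 (higher) gained a call.

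**Figure D5:**
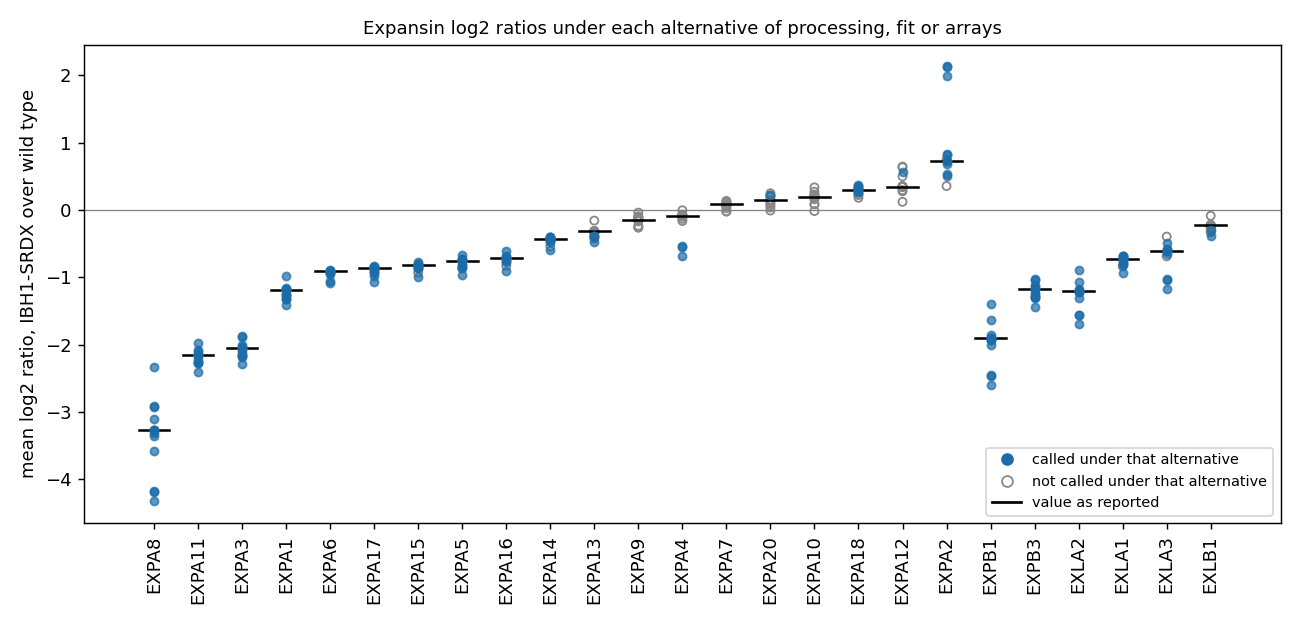
Mean log2 ratio (vertical axis) of the 25 measured expansins under each of 13 alternatives of processing, fit or arrays, filled where called and open where not; black bars are the values as reported. All 7 members at least 2-fold lower were called under each alternative, whereas EXPA18 was called under 8 of 13. Their size fell short of 2-fold for EXLA2 with outlier backgrounds kept (-0.89) and for EXPA1 without replicate 1 (-0.99).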

How the data were processed

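RNA from 10-day-old seedlings was measured on 3 2-colour arrays. Median pixel intensity per spot and per local background was read from the deposited scanner files, made with Agilent Feature Extraction 9.1.3.1, per the submitters' processing notes. The same deposited files give a log10 ratio with Cy5 as numerator. Values of the deposited series table were natural log ratios, IBH1-SRDX over wild type, as found here by setting it against the scanner files (slope 1.00 on each array for probes well above background). Its column medians were 0.00195, -0.225 and 0.00455, and its centring stays unknown.

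Local backgrounds marked as outliers took the median of the others of that array and channel, as in earlier work on these files. Signals were corrected by normexp (offset 50) and normalized by loess with control spots at weight 0. Control and outlier spots were left out, none of the latter an expansin. Marked local backgrounds at expansin spots numbered 2 on array 1, 2 on array 2 and 0 on array 3. Spots of a probe were averaged, and the brightest tested probe stood for a locus measured on at least 2 arrays. Intensities per genotype also had Aquantile normalization between arrays. Log2 ratios, turned by the labels, were tested against 0 with limma 3.58.1 in R 4.3.3 and checked on simulated data. Gene names came from the TAIR10.1 gene table, where all 36 members were found. Members and lists were chosen with earlier results of these data known. Members at least 2-fold changed or called higher, and EXPA7 and EXPA18, were to be given in full, and from other lists up to 4 called genes of smallest adjusted p. An exact sign-flip test on 3 arrays cannot go below p = 0.25, so calls rest on limma's pooled spread. With 2 arrays in one dye orientation and 1 in the other, the mean keeps 33.3% of any dye bias. Promoter motifs and protein identity were not analysed here.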

Additional observations from a re-analysis of the deposited data

How the results depend on the processing

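Of the 17 called expansins, 9 were called under each of 13 alternatives (EXPA1, EXPA3, EXPA6, EXPA8, EXPA11, EXPA17, EXPB1, EXPB3 and EXLA2), and no called member changed sign. Median centring gave 591 higher and 674 lower calls over all loci and 0 higher and 9 lower among expansins. Among the subfamilies, 6 EXPA and 1 of the EXLA and EXLB were lower. The expansin median was -0.83 with -0.10 over all loci, a difference of -0.73 beside -0.72 as reported. Outlier backgrounds kept gave 1141 and 1918 over all loci (62.7% of calls lower), 0 expansins higher, 6 at least 2-fold lower (289 over all loci) and a median of -0.61. The deposited series table had a median over all loci of -0.15 and gave 2471 higher and 6351 lower calls over all loci (72.0% of calls lower, beside 51.7% as reported), 1 expansin higher, 11 at least 2-fold lower and medians of -0.94 for expansins and -0.69 for EXPA. Over all loci, that table had 1106 called and at least 2-fold lower, beside 424 as reported. Centred on each array's median, an alternative chosen after seeing the data, it gave 16 expansins lower and 2 higher. Over all loci the centred table gave 3679 higher and 4065 lower calls. Without a filter, dim members enter and the medians were -0.19 for expansins and -0.090 for EXPA. With both genotypes required above background, EXPA2 drops out, leaving 1 expansin higher and an EXPA median of -0.57. Leaving out 1 replicate at a time gave 2327 to 3900 higher and 2502 to 4328 lower calls over all loci (fewest without replicate 1), 15 to 16 expansins lower and 1 to 2 higher (1 without replicate 3). The causes of changes not named here were not tested. Each array holds both genotypes, so the ratios tested against 0 are the paired analysis and no further replicate block was fitted. Signal over background limits EXPA2, EXPA4 and the untested members. EXPA8 and EXPB1 were well above background in every channel, yet their sizes moved with the processing (-4.33 to -2.33 and -2.60 to -1.40).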

Other observations

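Protein-coding genes next to the 25 measured expansins in the reference order were read from the same fit. Of 48 such neighbours that are no expansin, 32 were tested, 6 were lower, 4 higher and 22 not called, with a median log2 ratio of -0.01. The shares, 18.8% lower and 12.5% higher, were at or under the 19.9% and 18.6% of all loci. AT1G69526, beside EXPA1, had a mean of -0.76 ± 0.09 and AT5G05300, beside EXPA2, one of 0.74 ± 0.15. AT4G01610, beside EXPA17, stood at 0.77 ± 0.09. Next to EXPA7, which was not called, AT1G12570 stood at -0.60 ± 0.10. These 4 neighbours were named after their values were seen.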
